A study of Rattus norvegicus with 6 samples.

Results

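The genes described here are 10 components of the cardiac thin filament: the actins Actc1 and Acta1, the troponins Tnnc1, Tnnt1, Tnnt2, Tnni1 and Tnni3, the tropomyosins Tpm1 and Tpm3, and the leiomodin Lmod2. They were chosen by gene name from a table of 32623 rat genes, and each symbol had a single row. The cells were primary ventricular cardiomyocytes of Sprague-Dawley rats aged 1 to 3 days. A pair of groups was sequenced, each of 3 libraries. The siNC group received a negative-control small interfering RNA and the siMettl3 group one against Mettl3, the methyltransferase that places N6-methyladenosine on messenger RNA. Both groups had their small interfering RNA for 24 h and then lipopolysaccharide (LPS), a bacterial cell-wall product, for 6 h. Since all 6 libraries had LPS, a response to it cannot be read from these values. A pool of cells from several rats, isolated once, supplied every library. The p-values therefore measure the spread between these libraries, which may be technical.

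The thin filament is the actin cable of the sarcomere, along which myosin heads pull. Tropomyosin lies along the actin and covers the myosin-binding sites. The troponin complex holds it there and moves it when calcium rises: troponin C binds the calcium, troponin I inhibits, and troponin T ties the complex to tropomyosin. Leiomodin adds actin at the free end of the filament. Several subunits come from paralogous genes whose use shifts as the heart matures. In rodents, slow skeletal troponin I (Tnni1) gives way to cardiac troponin I (Tnni3) around birth, and skeletal alpha-actin (Acta1) recedes beside cardiac alpha-actin (Actc1) after birth and returns under load.

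Acta1 was lower in the siMettl3 libraries and passed the test. Actc1, Tnnc1, Tpm1 and Lmod2 were lower in every siMettl3 library than in any siNC library without passing the main test. The values of Tnnt2, Tnni1, Tnni3, Tnnt1 and Tpm3 overlapped between the groups. Levels are in FPKM, fragments per unit of transcript length and of sequencing depth, and means carry the SD of 3 libraries. Differences are log2 fold changes, siMettl3 minus siNC, on the scale log2(FPKM + 1), tested with limma over the 13105 genes that averaged 1 FPKM or more. A gene passed at a Benjamini-Hochberg adjusted p under 0.05.

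The targeted gene was reduced as labelled. Mettl3 measured 18.2, 17.2 and 15.3 FPKM in siNC replicates 1, 2 and 3, and 10.3, 10.6 and 9.90 FPKM in the siMettl3 libraries. The log2 difference of -0.67 (SE 0.0741) passed by limma (adjusted p = 0.00661), and every siMettl3 library lay below every siNC library. Total counts per library ran from 71202469 to 76668751. The cardiomyocyte markers fitted the label: the summed level of 8 of them (Myh6, Actn2, Ryr2, Pln, Nkx2-5, Mybpc3, Myl3 and Casq2) ran from 5614 to 5807 FPKM in siNC and from 5445 to 5748 FPKM in siMettl3. By limma 0 of the 8 passed in either direction, and 1 was lower at an unadjusted p under 0.05. edgeR called 1, Casq2, lower, against 4.9% of all genes it tested.

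The 10 genes spanned 11.4 to 5283 FPKM in their means over the 6 libraries. On this per-length scale the order was Actc1 (5283 FPKM), Tnnt2 (3836), Tnnc1 (1165), Tpm1 (1065), Acta1 (744), Tnni3 (570), Tnni1 (388), Tpm3 (94.5), Lmod2 (53.6) and Tnnt1 (11.4). Actc1 was the 6th most abundant gene of the whole table and Tnnt2 the 12th. Tnnc1 and Tpm1 overlapped in both groups. Within each of the 6 libraries Actc1 exceeded Tnnt2 and Acta1 exceeded Tnni3. Taken over the libraries of a group, the ranges of each of these pairs were apart in siNC and overlapped in siMettl3. The ranges of all other neighbours in this order stayed apart within each group.

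**Figure D1:**
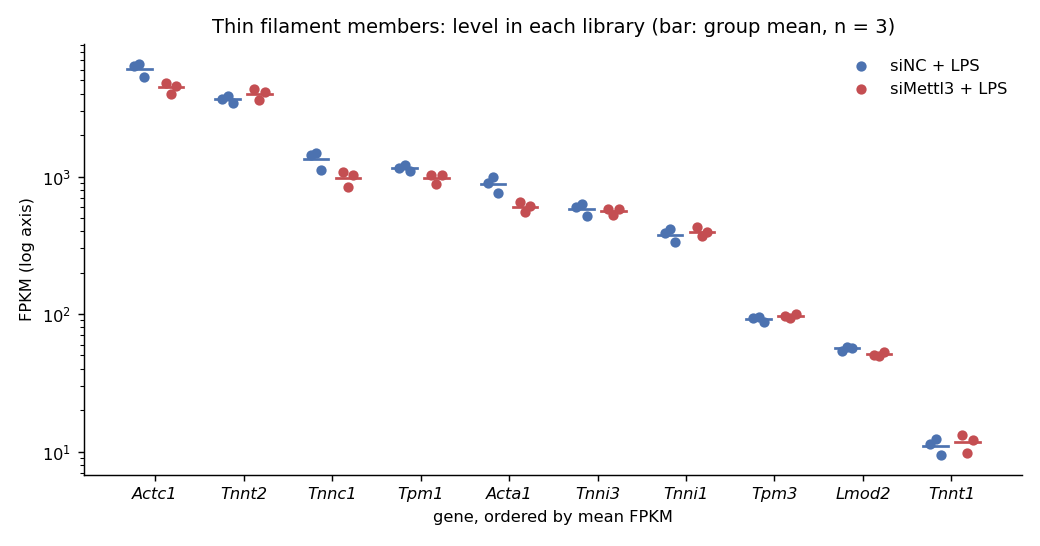
Level of each of the 10 thin filament genes in FPKM (log axis) in each of the 3 siNC (blue) and 3 siMettl3 (red) libraries, with a bar at the group mean, ordered by the mean of the 6 libraries. Levels run from about 11.4 FPKM for Tnnt1 to 5283 FPKM for Actc1, and the red points of Actc1, Tnnc1, Tpm1, Acta1 and Lmod2 lie below the blue ones.

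Cardiac alpha-actin, Actc1, is the main actin of the heart's sarcomeres and lies on chromosome 3 from 105507403 to 105512939 on the minus strand in the table's coordinates, whose build is not given in the sources used here. It measured 6336, 6638 and 5340 FPKM in siNC replicates 1, 2 and 3, and 4821, 3966 and 4596 FPKM in siMettl3. All 3 siMettl3 libraries lay below all 3 siNC libraries, with siNC replicate 3 nearest to them. The means were 6104 ± 679 and 4461 ± 443 FPKM, so that siMettl3 was at 73.1% of the siNC mean. Its log2 fold change of -0.45 (SE 0.142, 95% interval -0.79 to -0.11) missed the limma threshold (adjusted p = 0.0845). The count-based tests placed it on the other side, with an adjusted p of 0.0295 by edgeR and 2.73e-05 by DESeq2.

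Skeletal alpha-actin, Acta1, differs little in protein sequence from Actc1 and is prominent in the newborn rodent heart. Its gene lies on chromosome 19 from 56674074 to 56677084 on the minus strand. It measured 901, 999 and 754 FPKM in the siNC libraries and 651, 550.1 and 607 FPKM in the siMettl3 libraries. The groups did not overlap. Acta1 fell from a mean of 885 ± 123 FPKM in siNC to 603 ± 50.5 FPKM in siMettl3, with a log2 fold change of -0.55 (SE 0.119, 95% interval -0.83 to -0.26, limma adjusted p = 0.0355). edgeR (adjusted p = 0.0202) and DESeq2 (adjusted p = 1.19e-06) called it lower as well. The limma call held without siNC replicate 3 (adjusted p = 0.0299) and was lost without any other single library, with adjusted p from 0.0847 to 0.116. With genes under 1 FPKM kept in the test its adjusted p was 0.0719.

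In a bulk sample, fewer cells of a type and less RNA per cell cannot be told apart. Actc1 and Acta1 share long stretches of coding sequence with each other and with the other actins, and RefSeq lists 1 pseudogene named after Actc1 and 3 named after Acta1. How reads that fit several actins were assigned is not given in the sources used here, so the split between paralogous actins is uncertain. The 2 actins together summed to 6989 ± 801 FPKM in siNC and 5064 ± 493 FPKM in siMettl3, without overlap.

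The promoters of 3 genes are printed because they belong to the actin that fell, the actin beside it, and a troponin T gene whose levels overlapped between the groups. Each is the 250 bases before the annotated start in RefSeq's GRCr8 assembly of the rat, 5′ to 3′ on the gene's own strand. Capitals mark matches, with at most 1 mismatch, to the CArG box, the 10-base site of serum response factor, which drives many muscle actin genes. Acta1 is at chr19:68784195-68784444 on the minus strand, Actc1 at chr3:121271828-121272077 on the minus strand, and Tnnt2 at chr13:49818873-49819122 on the plus strand. RefSeq holds another Tnnt2 window, at chr13:49823809-49824058 on the plus strand. That window is not printed, and held no match to any motif of the search described next.
Acta1: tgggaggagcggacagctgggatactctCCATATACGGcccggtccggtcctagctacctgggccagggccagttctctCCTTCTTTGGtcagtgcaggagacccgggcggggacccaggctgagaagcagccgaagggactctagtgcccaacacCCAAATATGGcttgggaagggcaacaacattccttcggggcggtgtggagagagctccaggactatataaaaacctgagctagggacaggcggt
Actc1: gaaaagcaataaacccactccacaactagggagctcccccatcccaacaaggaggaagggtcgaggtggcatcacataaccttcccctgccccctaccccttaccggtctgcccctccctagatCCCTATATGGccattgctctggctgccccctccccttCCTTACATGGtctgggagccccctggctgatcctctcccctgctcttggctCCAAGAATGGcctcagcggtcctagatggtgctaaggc
Tnnt2: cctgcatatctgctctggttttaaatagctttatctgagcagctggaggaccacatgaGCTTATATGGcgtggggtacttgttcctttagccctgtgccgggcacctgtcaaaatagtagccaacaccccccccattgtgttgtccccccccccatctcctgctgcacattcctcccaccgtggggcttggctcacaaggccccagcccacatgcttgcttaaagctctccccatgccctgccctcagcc

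The promoter search covered the 250 bases before and 50 bases from each start, on both strands. RefSeq promoters were matched for 9 of the 10 genes, in 12 windows, and none was matched for Tnnc1. An exact CArG box stood in the windows of Acta1 (CCAAATATGG, 94 to 85 bases before the start) and Actc1 (CCAAATAAGG, at bases 3 to 12 from the start, past the stretch printed). These are 2 of the 12 windows, and of all 33469 rat promoter windows of that length, 1.64% hold an exact CArG box. With 1 mismatch allowed, matches stood in 7 of the 12 windows, from 6 genes (Acta1, Actc1, Lmod2, Tnnt2, Tpm1 and Tpm3), against 21.3% of all windows. The MCAT element CATTCC, the site of TEAD factors, stood in 3 of the 12 windows (Acta1, Tnnt2 and Tpm1), against 14.2% of all windows. TATAAA stood in 2 of the 12 windows (Acta1 and Tnnt1), against 14.2% of all windows. No MEF2 site was found in the 12 windows, against 3.29% of all, and no 2 of these matches overlapped. These matches describe letters in the windows, and no binding was measured.

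Troponin C of heart and slow muscle, Tnnc1, is the calcium sensor of the filament, on chromosome 16 from 7292096 to 7295465, plus strand. It measured 1440 FPKM, 1489 FPKM and 1125 FPKM in the siNC libraries and 1075, 839 and 1021 FPKM in siMettl3. The groups did not overlap, although siNC replicate 3 was only just above siMettl3 replicate 1. The means were 1351 ± 197 and 978 ± 124 FPKM, with a log2 fold change of -0.46 (SE 0.143, 95% interval -0.80 to -0.12) that missed the limma threshold (adjusted p = 0.0806). edgeR gave an adjusted p of 0.0525 and DESeq2 0.000439, so DESeq2 alone of the 3 tools called it.

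Cardiac troponin T, Tnnt2, links the complex to tropomyosin and lies on chromosome 13 from 52662996 to 52680990, plus strand. Its levels were 3687, 3869 and 3430 FPKM in siNC and 4312, 3612 and 4107 FPKM in siMettl3. Replicate 2 of siMettl3 lay inside the siNC range and the other two siMettl3 libraries above it. The means were 3662 ± 221 and 4010 ± 360 FPKM, and the log2 fold change of 0.13 had a 95% interval of -0.15 to 0.40 (limma adjusted p = 0.480).

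Slow skeletal troponin T, Tnnt1, is expressed weakly in heart and was the least abundant of the 10 genes (chromosome 1, 72889270 to 72899659, plus strand). It measured 11.3, 12.4 and 9.41 FPKM in siNC, and 13.2, 9.81 and 12.1 FPKM in siMettl3. The groups overlapped, and the siMettl3 mean was 106% of the siNC mean, with a log2 fold change of 0.08 (95% interval -0.23 to 0.39, limma adjusted p = 0.710). An interval that wide does not show that the level was the same.

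Cardiac troponin I, Tnni3, inhibits contraction at low calcium and is the mature isoform (chromosome 1, 72882806 to 72886488, plus strand). It measured 599, 628 and 513 FPKM in siNC and 578, 523 and 577 FPKM in siMettl3. The siMettl3 values all lay within the siNC range. The log2 fold change was -0.05 (95% interval -0.27 to 0.17, limma adjusted p = 0.745). The row overlaps that of Dnaaf3 on the same strand, whose mean was 3.73 FPKM.

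Slow skeletal troponin I, Tnni1, is the isoform of the fetal heart (chromosome 13, 52624878 to 52637297, plus strand). Its values were 387, 413 and 332 FPKM in siNC and 429, 371 and 395 FPKM in siMettl3. The ranges overlapped, and the log2 fold change was 0.08 (95% interval -0.15 to 0.31, limma adjusted p = 0.613). Summed, both troponin I genes gave 958 ± 101 and 957 ± 58.2 FPKM.

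The troponin genes sit in pairs of a T and an I gene. Tnni3 and Tnnt1 are 2781 bases apart on chromosome 1 with 0 genes of the table between them. Tnni1 and Tnnt2 are 25698 bases apart on chromosome 13 with 1 gene, Lad1, between them. None of these 4 genes passed the test, by limma, edgeR or DESeq2, and 0 of them had an unadjusted limma p under 0.05. Tnnc1, which is on chromosome 16, stood apart from them. Its level per 100 FPKM of Tnnt2 was 39.1, 38.5 and 32.8 FPKM in siNC and 24.9, 23.2 and 24.9 FPKM in siMettl3. This quantity was chosen after its values were seen and was not tested.

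The tropomyosin Tpm1 gives the main tropomyosin of the rodent ventricle (chromosome 8, 72814740 to 72841496, minus strand). It measured 1152, 1216 and 1093 FPKM in siNC and 1031, 877 and 1024 FPKM in siMettl3. The groups did not overlap. The means were 1153 ± 61.5 and 977 ± 86.8 FPKM, with a log2 fold change of -0.24 (SE 0.0920, 95% interval -0.46 to -0.02) and a limma adjusted p of 0.130. edgeR did not call it (adjusted p = 0.0633) and DESeq2 did (adjusted p = 0.00526). After quantile normalization its log2 fold change was -0.04.

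Tpm3 gives slow skeletal and cytoskeletal tropomyosins (chromosome 2, 189423559 to 189451029, plus strand). It measured 93.5, 94.9 and 87.5 FPKM in siNC and 96.8, 93.4 and 100.8 FPKM in siMettl3. The ranges overlapped through siMettl3 replicate 2. The means were 91.9 ± 3.91 and 97.0 ± 3.74 FPKM, with a log2 fold change of 0.08 (95% interval -0.06 to 0.21, limma adjusted p = 0.381). Values are per gene, so cytoskeletal and sarcomeric transcripts of Tpm1 and Tpm3, and splice forms of Tnnt2, cannot be told apart.

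Lmod2, the leiomodin of heart that lengthens thin filaments (chromosome 4, 51553454 to 51561174, plus strand), measured 54.1, 57.6 and 57.1 FPKM in siNC and 50.6, 49.3 and 52.9 FPKM in siMettl3. The groups did not overlap, though the gap between them was narrow. The means were 56.3 ± 1.88 and 51.0 ± 1.84 FPKM. The log2 fold change of -0.14 (SE 0.0519, 95% interval -0.26 to -0.02) gave a limma adjusted p of 0.123, with 0.0649 by edgeR and 0.0199 by DESeq2. Its row overlaps Iqub on the other strand, at a mean of 0.794 FPKM.

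**Figure D2:**
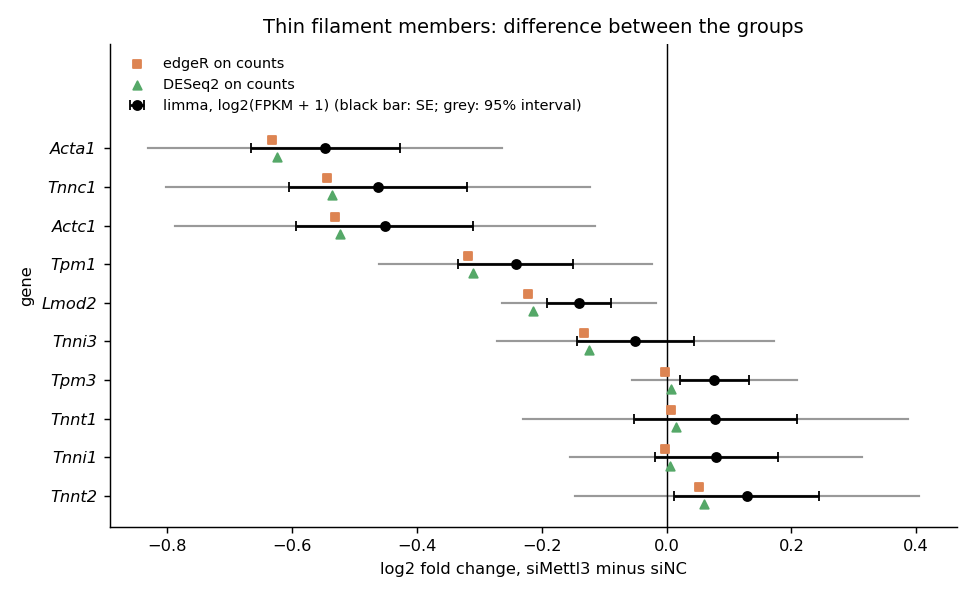
Log2 fold change, siMettl3 minus siNC, of each of the 10 genes by limma on log2(FPKM + 1) (black points, black bars for the SE, grey bars for the 95% interval), by edgeR (orange squares) and by DESeq2 (green triangles). Acta1, Tnnc1 and Actc1 lie between -0.55 and -0.45 by limma, and the intervals of Tnni3, Tpm3, Tnnt1, Tnni1 and Tnnt2 span 0.

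Across the 10 genes, limma called 1 lower (Acta1) and 0 higher. Of all tested genes, 10.9% were called, 4.4% lower and 6.53% higher. At an unadjusted p under 0.05 limma had 5 of the 10 lower (Actc1, Acta1, Tnnc1, Tpm1 and Lmod2) and 0 higher. The share of all tested genes under that unadjusted p was not computed, and is at least the 10.9% called after adjustment. edgeR called 2 lower (Actc1 and Acta1) and 0 higher, against 4.9% lower, 2.39% higher and 7.28% either way among the genes it tested. DESeq2 called those 5 lower and 0 higher, against 9.04% lower, 6.64% higher and 15.7% either way. Libraries of the groups did not overlap, with siMettl3 lower, for 5 of the 10 genes against 11.5% of all tested genes. They did not overlap with siMettl3 higher for 0 of the 10, against 26.4% of all. The median log2 fold change of the 10 was -0.10 with 6 below 0, and that of all tested genes was 0.07 with 4754 below 0. The 5 genes that did not overlap were below 0 under each of the other settings and omissions that were run. The signs of Tnnt1, Tnni1, Tnni3 and Tpm3 turned under some of them, with values near 0.

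Actc1, Acta1 and Tnnc1 had nearly parallel profiles across the libraries. As a measure of likeness, the root-mean-square distance between centred log2(FPKM + 1) profiles over the 6 libraries was 0.0420 for Actc1 and Tnnc1, 0.0598 for Actc1 and Acta1, and 0.0695 for Acta1 and Tnnc1. The other close pairs were Tnnt2 with Tnni1 (0.0569), Tnnt1 with Tnni1 (0.0632) and Tnnt2 with Tpm3 (0.0673). The widest distance was that of Acta1 and Tnnt2, at 0.345. Among 9263 genes averaging 5 FPKM or more, those with profiles nearest to Acta1 were Pcna (distance 0.0573), a replication clamp, Actc1, Fxyd5 (0.0635), Myl9 (0.0663), a smooth muscle myosin light chain, and Tagln (0.0666), an actin-binding protein of smooth muscle. Tnnc1 was the 6th nearest, Tpm1 the 362nd and Tnnt2 the 4679th.

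**Figure D3:**
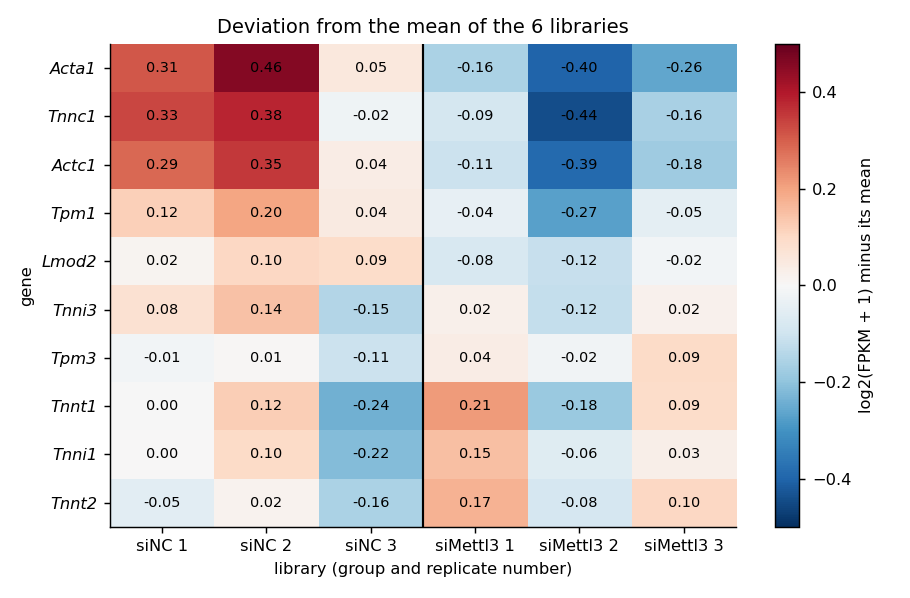
Deviation of each gene (rows, ordered by log2 fold change) in each library (columns) from its own mean of log2(FPKM + 1) over the 6 libraries, with siNC left and siMettl3 right of the line (red above the mean, blue below it). Acta1 ranges from 0.46 in siNC replicate 2 to -0.40 in siMettl3 replicate 2, and the column of siMettl3 replicate 2 is below the mean for all 10 genes.

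Both libraries numbered 2 lay at opposite ends for these genes. In siNC replicate 2 no gene of the 10 was below its own mean and 6 had their highest value. In siMettl3 replicate 2 all 10 were below their own mean and 5 had their lowest value. The other 5 had their lowest value in siNC replicate 3. The same libraries differed in how values varied with transcript length. The median deviation of the 20% of genes with the longest transcripts (above 4.06 kb) minus that of the 20% with the shortest (below 1.25 kb) was -0.10, -0.23 and 0.07 in siNC and 0.01, 0.27 and -0.04 in siMettl3. The 10 genes have effective lengths of 0.825 kb (Tnni3) to 3.21 kb (Tpm1), with 1.48 kb for Acta1 and 1.53 kb for Actc1. Tnnc1 (0.848 kb) and Tnni3 are nearly alike in length, with log2 fold changes of -0.46 and -0.05. What part length had in the differences between the groups was not tested.

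With each library corrected for length, a step chosen after the data were seen, limma called 4 of the 10 lower and 14.8% of all genes tested in either direction, against 10.9% without the correction. The 4 were Acta1 (-0.57, adjusted p = 0.0112), Actc1 (-0.47, adjusted p = 0.0236), Tnnc1 (-0.44, adjusted p = 0.0281) and Lmod2 (-0.20, adjusted p = 0.0357). Without both libraries numbered 2, also chosen after the data were seen, limma called 0 of the 10 and 1.5% of all genes tested, and Acta1 was at -0.39 (adjusted p = 0.122).

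For the contrast of isoforms, the log2 ratio of FPKM of paired paralogues was taken within each library, where a library's scale factor cancels. Differences between libraries that vary with transcript length or with level do not cancel. No ratio was taken after length correction or quantile normalization. The pairs were Acta1 to Actc1, Tnni1 to Tnni3, Tnnt1 to Tnnt2 and Tpm3 to Tpm1. With 3 libraries against 3 the smallest p of the exact 2-sided permutation test is 0.1, so no ratio could pass the threshold. Adjusted over the 4 ratios, the exact p was 0.133 for each of the 3 ratios whose libraries did not overlap. Lack of overlap was common for single genes, at 11.5% of those tested with siMettl3 lower and 26.4% with it higher. No such share was computed for other pairs of genes.

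The actin ratio was lower in every siMettl3 library. The log2 ratio of Acta1 to Actc1 was -2.81, -2.73 and -2.82 in siNC and -2.89, -2.85 and -2.92 in siMettl3, a difference of -0.10 (exact permutation p = 0.1). Acta1 made up 12.6% ± 0.390 of the FPKM of this pair in siNC and 11.9% ± 0.260 in siMettl3. The groups did not overlap, and the shift was small beside the lower level of both genes.

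The troponin I ratio was higher in every siMettl3 library. The log2 ratio of Tnni1 to Tnni3 was -0.63, -0.61 and -0.63 in siNC and -0.43, -0.50 and -0.55 in siMettl3, a difference of 0.13 (exact permutation p = 0.1). The fetal isoform was thus 39.4% ± 0.222 of troponin I FPKM in siNC and 41.6% ± 0.990 in siMettl3. Neither gene passed on its own, and the ranges of the ratio did not overlap. After length correction the log2 fold changes were 0.07 for Tnni1 and -0.02 for Tnni3. After quantile normalization they were 0.20 for Tnni1 and 0.08 for Tnni3.

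The troponin T ratio overlapped between the groups. The log2 ratio of Tnnt1 to Tnnt2 was -8.35, -8.29 and -8.51 in siNC and -8.35, -8.52 and -8.41 in siMettl3, a difference of -0.04 (exact permutation p = 0.6). Tnnt1 was 0.299% of the pair in siNC and 0.290% in siMettl3. The sign of this difference turned without siNC replicate 2 and without siMettl3 replicate 2.

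Of the 4 ratios, that of Tpm3 to Tpm1 differed most. It was -3.62, -3.68 and -3.64 on the log2 scale in siNC and -3.41, -3.23 and -3.34 in siMettl3, a difference of 0.32 (exact permutation p = 0.1). The share of Tpm3 in the pair was 7.39% ± 0.135 and 9.06% ± 0.522. All siMettl3 libraries lay above all siNC libraries, with Tpm1 lower and Tpm3 overlapping. After quantile normalization the log2 fold changes of the genes were -0.04 for Tpm1 and 0.10 for Tpm3. After length correction they were -0.32 for Tpm1 and 0.003 for Tpm3.

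**Figure D4:**
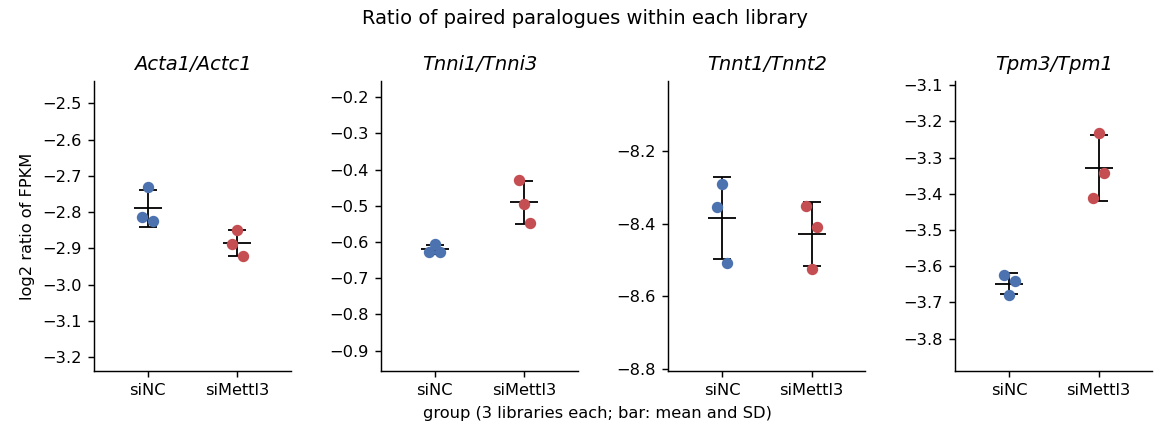
Log2 ratio of the FPKM of paired paralogues in each library of siNC (blue) and siMettl3 (red), with the mean and SD of 3 libraries. Each panel spans the same 0.8 log2 units around its own centre. The groups differ by 0.32 for Tpm3/Tpm1, 0.13 for Tnni1/Tnni3 and -0.10 for Acta1/Actc1 without overlap, and overlap for Tnnt1/Tnnt2.

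As a scale for these shifts, the mean log2 FPKM of the 8 cardiomyocyte markers was 8.15 ± 0.0296 in siNC and 8.16 ± 0.0239 in siMettl3. Single markers moved in both directions behind this mean. By limma 4 of the 8 had log2 fold changes below 0, among them Casq2 at -0.22, while Ryr2 was at 0.36. Against that mean within each library, Acta1 differed by -0.56, Tnnc1 by -0.48, Actc1 by -0.46, Tpm1 by -0.25 and Lmod2 by -0.16, each without overlap. Tnnt2 (0.12), Tnni1 (0.07), Tnni3 (-0.06), Tnnt1 (0.07) and Tpm3 (0.07) overlapped. The 10 genes together made up 2.62% ± 0.179 of all FPKM in siNC and 2.30% ± 0.133 in siMettl3, with overlap. The scaling to the marker mean was chosen after the data were seen, was not tested, and was not applied to other genes.

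Of 17 other thin filament genes, 12 reached 1 FPKM and were tested. By limma 3 fell and 0 rose, against 4.4% and 6.53% of all tested genes. The median log2 fold change was -0.17 beside 0.07 over all tested genes. Acta2, the alpha-actin of smooth muscle and of immature heart, measured 2397, 2495 and 2265 FPKM in siNC and 1633, 1582 and 1515 FPKM in siMettl3. It fell by 0.60 on the log2 scale (SE 0.0844, limma adjusted p = 0.0127), and the groups were far apart. Actg2, the gamma-actin of smooth muscle, fell from 35.8 ± 1.28 to 20.2 ± 1.66 FPKM (log2 fold change -0.80, limma adjusted p = 0.00417). Tpm2, the beta-tropomyosin, fell from 544 ± 36.4 to 390 ± 29.9 FPKM (log2 fold change -0.48, limma adjusted p = 0.0212). Limma called Actg2 in 6 of 6 fits with 1 library left out, Acta2 in 4 and Tpm2 in 3.

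The 4 muscle actins Actc1, Acta1, Acta2 and Actg2 summed to 9411 ± 915 FPKM in siNC and 6660 ± 509 FPKM in siMettl3, which is 70.8% of the siNC sum. Within that sum the shares of Actc1 (64.8% and 66.9%), Acta1 (9.38% and 9.04%) and Acta2 (25.4% and 23.8%) overlapped between the groups. Actg2 was 0.382% of it in siNC and 0.303% in siMettl3, without overlap. The 4 tropomyosins summed to 2319 ± 101 and 1918 ± 139 FPKM. Of these, Tpm2 was 23.4% ± 0.801 in siNC and 20.3% ± 0.189 in siMettl3, and Tpm3 3.97% ± 0.0294 and 5.07% ± 0.222. Tpm1 held 49.7% and 50.9%, overlapping.

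The remaining 9 tested genes did not pass. The cytoskeletal tropomyosin Tpm4 (log2 fold change -0.22, limma adjusted p = 0.0611) and the smooth muscle leiomodin Lmod1 (-0.25, 0.0713) were lower in every siMettl3 library, and edgeR called both. The cytoplasmic actins were at -0.15 for Actb (limma adjusted p = 0.202) and -0.19 for Actg1 (0.315). The tropomodulins, which cap the free end of the filament, were at 0.05 for Tmod1, -0.05 for Tmod2, 0.18 for Tmod3 (limma adjusted p = 0.0606) and 0.48 for Tmod4 (0.0654). Tmod3 and Tmod4 were higher in every siMettl3 library than in any siNC library, and edgeR called neither. Such lack of overlap held for 26.4% of all tested genes in the higher direction and for 11.5% in the lower. Nebl, the nebulette of the heart, was at 0.23. The fast skeletal troponins Tnnt3, Tnni2 and Tnnc2, the skeletal leiomodin Lmod3 and nebulin, Neb, stayed under 1 FPKM on average.

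**Figure D5:**
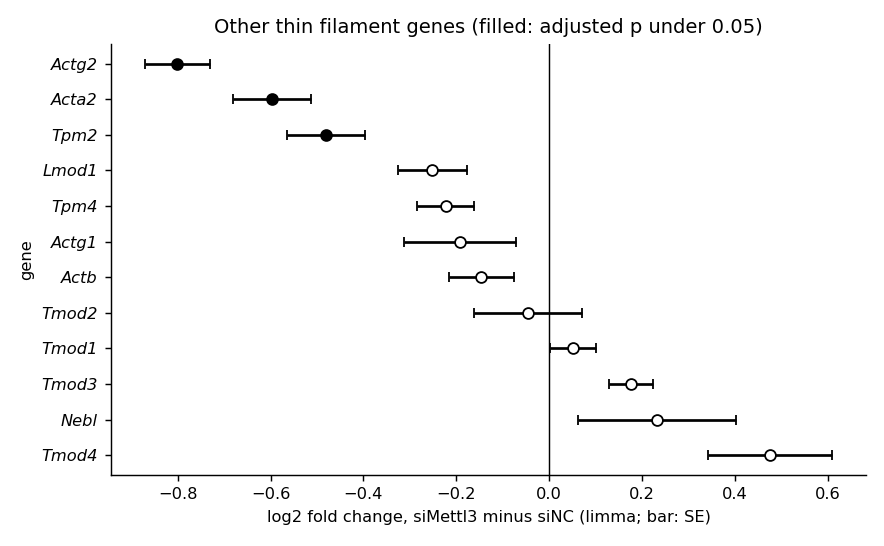
Log2 fold change, siMettl3 minus siNC, with its SE by limma, of the 12 tested thin filament genes outside the main 10. Filled points (Actg2, Acta2 and Tpm2, at -0.80, -0.60 and -0.48) passed at an adjusted p under 0.05, and the tropomodulins Tmod1, Tmod3 and Tmod4 lie above 0.

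Next come genes that build, fold or remove thin filaments, to be read beside the 10.9% of all tested genes that limma called. Of 14 genes of actin assembly, 2 rose and 0 fell by limma: Cap2, an actin-binding protein of heart (49.5 ± 1.77 to 64.1 ± 3.29 FPKM, adjusted p = 0.0165), and Capza1, a capping protein subunit (56.4 ± 2.02 to 66.2 ± 1.55 FPKM, adjusted p = 0.0356). Dstn, which severs actin filaments, was at -0.26 (limma adjusted p = 0.0659) and the formin Daam1 at 0.32 (0.0786). edgeR called Cap2 higher (adjusted p = 0.0331) and Dstn lower (0.0371), and did not call Capza1 (0.131). Among 9 myofibril chaperones and ubiquitin ligases, 1 rose and 0 fell: Trim63, a muscle ubiquitin ligase, from 27.8 ± 1.99 to 36.3 ± 0.956 FPKM (limma adjusted p = 0.0201). The small heat shock genes Hspb1 (-0.30, 0.108) and Hspb7 (-0.18, 0.128) and the ligase Fbxo32 (0.49, 0.141) did not pass. With 1 library left out, the limma call of Cap2 held in 4 of 6 fits, that of Trim63 in 2 and that of Capza1 in 1. The medians were 0.01 for actin assembly and 0.10 for the chaperones and ligases.

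Of 10 thick filament genes tested, 1 fell and 0 rose by limma (against 4.4% and 6.53% of all tested genes), with a median of -0.03. It was Myom2, an M-band protein, from 33.2 ± 2.32 to 21.0 ± 0.914 FPKM (adjusted p = 0.00578). Myh7, the slow and fetal myosin heavy chain of rodent heart, was at -0.26 (limma adjusted p = 0.0617), Myl4 at -0.29 (0.101) and Myh7b at 0.27 (0.110). edgeR called 2 of this list lower, Myom2 and Myh7 (adjusted p = 0.0172). The list of fetal and stress genes held 8, of which 4 fell and 0 rose, with a median of -0.46. Myh3, the embryonic myosin heavy chain, measured 15.2, 14.8 and 18.4 FPKM in siNC and 1.36, 0.776 and 0.972 FPKM in siMettl3 (log2 fold change -3.08, limma adjusted p = 0.000998). Acta2, Tagln (-0.59, 0.0260) and Nppb (-0.55, 0.0395), the brain natriuretic peptide gene, were the others, and the smooth muscle list also holds Acta2 and Tagln. Of 12 tested maturation genes 1 fell and 0 rose, with a median of -0.09: Mb, myoglobin, from 225 ± 0.890 to 140 ± 28.6 FPKM (limma adjusted p = 0.0321). Cpt1b (-0.27, 0.0617), Fabp3 (-0.51, 0.0622) and Casq2 (-0.22, 0.0756) were lower in every siMettl3 library without passing by limma. Of all tested genes, 11.5% were lower in every siMettl3 library than in any siNC library. edgeR called 4 maturation genes lower: Mb (adjusted p = 0.0240), Cpt1b (0.0382), Fabp3 (0.0434) and Casq2 (0.0389). Of the fetal and stress genes it called 6 lower. Among all genes edgeR tested, 4.9% were called lower and 2.39% higher. With 1 library left out, limma called Myh3 and Myom2 in 6 of 6 fits, Mb in 2, Tagln in 1 and Nppb in 0.

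Among regulators of these genes, the limma calls were all in the higher direction. Over all tested genes limma called 6.53% higher and 4.4% lower. Of 13 transcription factors and cofactors, 2 rose and 0 fell: Tbx5 (5.64 ± 0.0502 to 7.83 ± 0.258 FPKM, adjusted p = 0.0131) and Srf, serum response factor (21.6 ± 0.560 to 26.1 ± 1.32 FPKM, adjusted p = 0.0337). Hand2 (0.21, 0.0595) and Mef2d (0.23, 0.152) did not pass. Of 8 splicing regulators of troponin T and tropomyosin, 3 rose and 0 fell: Rbm24 (0.29, limma adjusted p = 0.0318), Ptbp1 (0.24, 0.0415) and Rbm20 (0.34, 0.0468). Celf1 was at 0.38 (0.0755). The medians were 0.13 and 0.22. edgeR called Tbx5 (adjusted p = 0.0110), and not Srf (0.0788), Rbm24 (0.0874), Ptbp1 (0.137) or Rbm20 (0.0892). With 1 library left out, the limma call of Srf and that of Ptbp1 held in 0 of 6 fits, those of Rbm24 and Rbm20 in 1, and that of Tbx5 in 4.

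Markers of other cell types also differed between the groups. Their counts stand beside the 4.4% of all tested genes that limma called lower and the 6.53% it called higher. Of 9 smooth muscle markers, 5 fell and 0 rose by limma (Myh11, Acta2, Tagln, Cnn1 and Actg2). Only 6 of the 9 were below 0. In every siMettl3 library 1 of the 9 was higher than in any siNC library, as were 26.4% of all tested genes. The sum of the 9 was 3842 to 4336 FPKM in siNC and 2604 to 2813 FPKM in siMettl3. In siNC, Acta2 averaged 2386 FPKM and Tagln 1273 FPKM of that sum. Of 9 fibroblast markers, 6 fell, among them Fbln2 (-1.10), Col3a1 (-0.84), Col1a1 (-0.67) and Postn (-0.60), and the sum was 1490 FPKM to 1559 FPKM against 909 to 968 FPKM. Of 6 tested macrophage markers, 5 fell, among them C1qa (-1.14), C1qb (-1.01), Lyz2 (-0.95) and Adgre1 (-0.72). The 7 found, tested or not, summed to 70.1 to 86.2 FPKM in siNC and 36.3 to 47.4 FPKM in siMettl3. Of 3 tested endothelial markers, 2 rose (Cdh5, 0.51, and Tek, 0.36). The 5 found, tested or not, summed to 11.2 to 12.8 FPKM in siNC and 14.3 to 16.1 FPKM in siMettl3. Kdr was at 0.10.

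The skeletal muscle markers bear on Acta1, Tnnt1 and Tnni1, which skeletal muscle also expresses. Of 15 found, 3 reached 1 FPKM: Casq1 fell (-0.46, limma adjusted p = 0.0237), Cacna1s fell (-0.66, 0.0127) and Mybpc2 was at 0.24 (0.0730). The sum over all 15 found was 208 to 233 FPKM in siNC and 168 to 194 FPKM in siMettl3. edgeR tested 11 of the 15 and called 4 lower and 0 higher, against 4.9% lower and 2.39% higher of all genes it tested. The defining markers Myf5, Pax3 and Pax7 had a count of 0 in all 6 libraries, and Myod1 was at most 0.173 FPKM. The part of smooth muscle, fibroblast, macrophage, endothelial or skeletal muscle cells in the values of Acta1, Actc1 and the other genes was not tested.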

How the data were processed

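The authors deposited a table with FPKM and count columns for 6 libraries, per the file headers. FPKM was computed by the authors, and genes without reads are listed at 0.0001. The deposited counts are whole numbers, and may have been derived from coverage, since within a gene they are nearly proportional to FPKM. The submitters' processing notes name Bowtie 0.12.2 and mm8 without a role. The aligner, build and strand setting used for the rat table are not given in the sources used here. Here log2(FPKM + 1) of the 13105 genes averaging 1 FPKM or more was fitted with limma 3.58.1 (intensity trend, 2-sided, R 4.3.3), with Benjamini-Hochberg adjustment over all of them. edgeR 4.0.16 (quasi-likelihood, trimmed-mean scaling) and DESeq2 1.42.0 were run on the counts. Effective length is the ratio of counts to FPKM. The scripts were tested on simulated data. Ratios were tested with exact permutation over libraries (scipy 1.17.1).

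The 10 members, the 15 gene lists (151 symbols, 141 found) and the tests were chosen with earlier results of these data known. The genes named were the 10, Mettl3, every other thin filament gene, up to 4 tested genes with the smallest adjusted p in each other list, and the 5 nearest profiles to each gene past the threshold. Fibroblast and smooth muscle genes beyond 4 are counted, or named after their values were seen. Replicate numbers are shared by the groups, but the labels do not say what a number marks, and same-numbered libraries did not deviate together (r = 0.03, -0.25 and -0.12 for numbers 1, 2 and 3), so no pairing was used. Total counts were at least 71202469 in each library. Since these counts may derive from coverage, the part of counting error in the spread between libraries was not assessed. Alternatives were another pseudocount, no filter, other scalings, leaving out each library, a replicate block, edgeR, DESeq2, a length correction and leaving out both libraries numbered 2.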

Additional observations from a re-analysis of the deposited data

How the results depend on the processing

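Of the 10 genes, limma called 1 lower as reported, 0 without the filter on low values, 2 after quantile normalization, 4 after length correction and 0 without both libraries numbered 2. edgeR called 2, also with median-ratio size factors, and DESeq2 5. With 1 library left out the number was 0 to 1, and 0 were called higher in all these settings. The gene lists had 8 calls lower and 8 higher over the pathway lists. Leaving out 1 library gave 3 to 6 lower and 0 to 6 higher. No filter gave 4 lower, median-ratio scaling 14 lower and 3 higher, quantile normalization 3 higher, edgeR 16 lower and 3 higher (the same with median-ratio size factors), edgeR without its filter 3 higher, DESeq2 23 lower, length correction 20 lower, and omitting both libraries numbered 2 gave 4 lower and 0 higher. Over all genes, 576 were called lower and 856 higher. Leaving out 1 library gave 123 to 390 lower and 81 to 471 higher. Higher calls were 500 without the filter, 358 with median-ratio scaling, 469 with quantile normalization, 395 by edgeR, 433 by edgeR with median-ratio size factors and 308 by edgeR without its filter. Lower calls were 1360 by DESeq2 and 1219 after length correction. Without both libraries numbered 2 there were 118 lower and 78 higher. Some members' signs turned. Tnnt1 was at -0.0050 after quantile normalization, -0.021 without siNC replicate 3 and -0.0075 without siMettl3 replicate 1. Tnni1 was at -0.0098 without siNC replicate 3, -0.0025 by edgeR and 0.20 without both libraries numbered 2. Tnni3 was at 0.084 after quantile normalization, 0.010 without siNC replicate 2, -0.14 without siNC replicate 3 and 0.058 without both libraries numbered 2. Tpm3 was at -0.0017 by edgeR. The ratio of Tnnt1 to Tnnt2 ranged from -0.11 to 0.0049 with 1 library left out and was 0.052 without both libraries numbered 2. No ratio was taken after length correction or quantile normalization. With 1 library left out, the ratio of Acta1 to Actc1 ranged from -0.12 to -0.07. Over the same omissions, Tnni1 to Tnni3 ranged from 0.10 to 0.16 and Tpm3 to Tpm1 from 0.27 to 0.36. The cause of these shifts was not tested. The replicate numbers share no stated origin. With them as a replicate block, limma called 0 of the 10 genes (Acta1 adjusted p = 0.153), 1 lower and 0 higher in the pathway lists, and 5 lower and 1 higher over all genes. The exact paired p was 0.25 for the ratios that did not overlap.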
